A study of Mus musculus with 4 samples.

Results

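L1210-Fbxw11d was compared with L1210-Control across the gene probes of 1 Agilent array per line. The L1210 cells come from a lymphocytic leukemia of the DBA mouse and grow as a cell line. Both lines were infected with lentivirus, sorted by flow cytometry for GFP+ cells and kept as stable lines in RPMI medium with fetal bovine serum, and they differ in the insert, Fbxw11d or control. A lentiviral vector with the EF1α promoter is among the study's materials, and the sources used here do not say whether a line is 1 clone or a pool of sorted cells. Of the 55681 gene probes on the array, 39090 exceeded background clearly in L1210-Fbxw11d, in L1210-Control or in both, by the scanner software's test, and were compared. Both arrays measured 33948 of these, 4289 were measured on L1210-Fbxw11d only and 853 on L1210-Control only. The compared probes covered 18456 of the 24561 gene symbols on the array. The other 2 arrays of the series, L1210-Fbxw11a and L1210-Fbxw11c, are given beside single genes as a description, and all 3 lines share the 1 control array.

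Fbxw11, also called β-TrCP2, is an F-box protein, the part of an SCF ubiquitin ligase that picks the protein to be tagged. Its known substrates include the IκB proteins, which hold NF-κB in the cytoplasm, and β-catenin, which drives TCF target genes. The full-length transcript is Fbxw11a, Fbxw11c lacks an early exon, and Fbxw11d lacks that exon and the next. NF-κB is known for driving chemokines, cytokines and survival genes in leukocytes, and the comparison asks which transcripts differ when the shortest of these variants is overexpressed.

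With 1 array a line, replicates cannot check any difference, and p-values are not given. The L1210-Fbxw11d array lay on another slide than the other 3, so slide and line cannot be told apart. Signals were scaled to the 75th percentile of their array (621 for L1210-Control and 952 for L1210-Fbxw11d), and every signal printed is in units of the control array. Ratios are given on this scale, and many also on the authors' deposited normalized scale, which makes the distributions of the 4 arrays nearly equal. A ratio or fold printed without a scale is on the 75th percentile scale. The E1A spike-in RNAs, which are added in equal amounts, had a log2 ratio of -0.58 (SD 0.086 over 8 probes) after 75th percentile scaling and of 0.036 before it. Where a probe was well above background on 1 array only, the fold is a bound, written "at least". The error behind a ratio is that of the scanner software, 0.20 on the log2 scale for bright probes and 0.35 for a gene as dim as Lilrb4 (10.8 in L1210-Fbxw11d), and it leaves out culture, sorting and RNA extraction. Probes printed on 10 or more spots had a median SD between single-spot ratios of 0.11 (124 probes, signal of 1000 or more) and 0.92 (28 probes, signal under 100).

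More probes were lower than higher in L1210-Fbxw11d, and most of them were dim. At 2-fold, 396 probes were higher and 2320 were lower on the 75th percentile scale, together 6.95% of those compared (1.01% and 5.94%). The deposited scale gave 691 higher and 1603 lower, together 5.87% (1.77% and 4.1%). Called on both scales were 389 higher and 1599 lower probes. The excess depended on the scaling: centred on the E1A spike-ins, 3851 probes were higher and 861 lower, and centred on the median, 868 were higher and 1519 lower. Counted as genes with 1 probe each, 200 were higher (1.08%) and 865 lower (4.69%) on the 75th percentile scale, together 5.77%. On the deposited scale 316 (1.71%) and 616 (3.34%) were, together 5.05%. The median log2 ratio over all genes was 0.05 and 0.04 on these scales, 0.26 centred on the median and 0.62 centred on the E1A spike-ins.

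**Figure D1:**
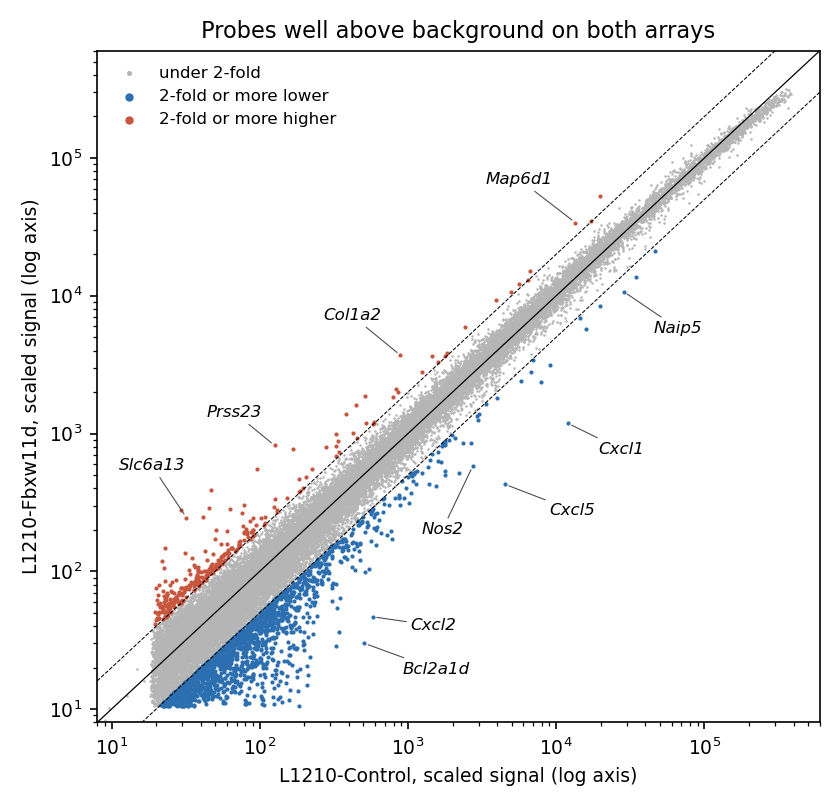
Scaled signal of L1210-Fbxw11d (vertical, log axis) against L1210-Control (horizontal, log axis) for the 33948 probes well above background on both arrays, 1 point a probe, with the line of equal signal and dashed lines at 2-fold. The 1572 lower probes crowd the dim end, and Cxcl1 is among the few bright ones (11997 in L1210-Control and 1185 in L1210-Fbxw11d).

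Most of the excess of lower probes lay at signals under 1000, and a smaller one lay between 1000 and 10000. Among the 7771 probes whose brighter signal before scaling was 30 to 100, 818 were lower and 69 higher on the 75th percentile scale, against 502 and 196 on the deposited scale. Between 100 and 1000 there were 565 lower and 178 higher among 12021 probes, against 440 and 273 on the deposited scale. Between 1000 and 10000, 44 were lower and 26 higher among 8153 (deposited 48 and 22). Above 10000, 7 were lower and 8 higher among 5030 (deposited 7 and 5). Above 10000 the counts in both directions were alike, and the share called was 0.298% there against 11.4% between 30 and 100.

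**Figure D2:**
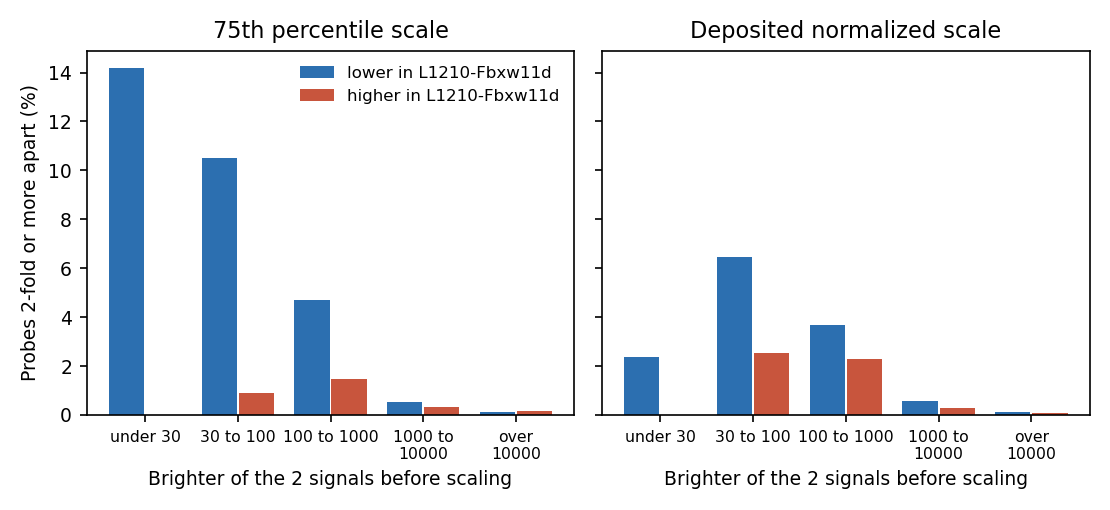
Share of probes measured on both arrays that were 2-fold or more lower (blue) or higher (red) in L1210-Fbxw11d, by the brighter of the 2 signals before scaling, on the 75th percentile scale (left) and the deposited normalized scale (right). The share lower between 30 and 100 was 10.5% on the left and 6.46% on the right, and both directions were under 1% from 1000 upwards on both scales.

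Fbxw11 itself was probed at chr11:32646601-32646660 and chr11:32646490-32646549 (mm9). The first probe read 13153 in L1210-Control and 13432 in L1210-Fbxw11d, with 16343 in L1210-Fbxw11a and 15898 in L1210-Fbxw11c. The second read 9730 in L1210-Control and 11031 in L1210-Fbxw11d. The log2 ratios of L1210-Fbxw11d to L1210-Control were 0.03 and 0.18 (scanner error 0.20 each) on the 75th percentile scale and -0.06 and 0.11 on the deposited scale. On these scales neither probe set the lines apart by more than the scanner error. The first probe had a log2 ratio of 0.25 centred on the median and 0.61 centred on the E1A spike-ins. The medians over all genes were 0.26 and 0.62 there, so the probe lay at the level of all genes. Whether the insert carries the sequence of these probes is not given in the sources used here, so they do not check the label.

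Small secreted CXC chemokines that call neutrophils led the lower genes among bright probes. The neutrophil attractant Cxcl1 (probe at chr5:91321845-91321904, mm9) read 11997 ± 1200 (scanner error) in L1210-Control and 1185 ± 119 in L1210-Fbxw11d, and 793 and 1177 in L1210-Fbxw11a and L1210-Fbxw11c. It was 10.1-fold lower, a log2 ratio of -3.34 ± 0.20 (scanner error) and -3.36 on the deposited scale. All 3 variant lines lay below the control for this gene.

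Its neighbours on chromosome 5 moved in the same direction. Cxcl5 read 4509 in L1210-Control and 428 in L1210-Fbxw11d, 10.5-fold lower (log2 ratio -3.40, deposited -3.38). Cxcl2 read 578 and 46.8, 12.4-fold lower (log2 ratio -3.63, deposited -3.49). Cxcl3 read 1552 and 418, 3.72-fold lower (log2 ratio -1.89 on both scales). For each of the 4 genes L1210-Control lay above all 3 variant lines, and the log2 ratios of Cxcl1 and Cxcl5 lay within the scanner error of each other.

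Not every chemokine followed. Of 36 chemokine ligands, 21 were measured, 7 were lower by 2-fold and none was higher (6 and 0 on the deposited scale). The 7 were 33.3% of the measured ligands, against 4.69% lower over all genes. The other 3 were Cxcl16, a membrane-bound chemokine (1357 to 573, 2.37-fold lower), Ccl5, also known as RANTES (127 to 60.5, 2.10-fold lower, with a log2 ratio of -0.91 on the deposited scale), and Xcl1, lymphotactin. Xcl1 read 99.0 in L1210-Control and did not clear background in any variant line, at least 9.48-fold lower in L1210-Fbxw11d. By contrast the monocyte attractant Ccl2 read 996 and 1203 (log2 ratio 0.27), and Cxcl11 read 201762 and 172253 (log2 ratio -0.23). The interferon-induced Cxcl10 read 7652 and 4091 and missed the threshold with a log2 ratio of -0.90 (deposited -0.97).

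Among 12 chemokine receptors measured, 2 were lower and 1 was higher by 2-fold, together 25% against 5.77% called over all genes. Ccr4, the receptor of Ccl17 and Ccl22, read 92.3 in L1210-Control, did not clear background in L1210-Fbxw11d and was at least 8.85-fold lower. Ccr10 read 74.1 and 14.8, 5.00-fold lower. Ccr6, the receptor of Ccl20, read 36.4 and 108, 2.97-fold higher. Of the alternatives tried, only normexp background correction took Ccr6 under 2-fold (log2 ratio 0.63). The brightest receptor, Ccr7, which guides lymphocytes to lymph nodes, read 8438 and 8072 (log2 ratio -0.06).

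The κB site in the promoters of 4 of the lower genes is shown because it is the sequence NF-κB binds. Each line below is the 120 bases before the annotated start, 5′ to 3′ on the + strand of GRCm38.p6 (RefSeq), with matches to GGGANTTTC, most of a κB site, in capitals.
Cxcl1, chr5:90891125-90891244: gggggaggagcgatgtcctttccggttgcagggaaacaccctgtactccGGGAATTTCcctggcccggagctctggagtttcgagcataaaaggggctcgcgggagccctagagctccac
Cxcl2, chr5:90903779-90903898: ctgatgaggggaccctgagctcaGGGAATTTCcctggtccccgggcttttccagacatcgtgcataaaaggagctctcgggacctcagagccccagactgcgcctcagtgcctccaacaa
Cxcl3, chr5:90785981-90786100: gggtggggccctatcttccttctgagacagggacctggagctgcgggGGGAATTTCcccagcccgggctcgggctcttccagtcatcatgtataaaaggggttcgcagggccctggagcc
Il6, chr5:30012994-30013113: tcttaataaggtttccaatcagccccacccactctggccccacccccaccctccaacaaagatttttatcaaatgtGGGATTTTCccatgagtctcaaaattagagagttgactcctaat
The match began 71 bases before the start of Cxcl1, 97 before Cxcl2, 73 before Cxcl3 and 44 before Il6. On either strand, GGGANTTTC was found in 365 of 32851 RefSeq promoters of 300 bases, or 1.11%. Of 16 measured NF-κB targets with a promoter in that table (of 22 measured), 5 held it, namely the lower genes Cxcl1, Cxcl2 and Il6 and also Nfkbia and Nfkb2, which were not lower by 2-fold. Of all genes lower by 2-fold with a promoter in the table, 8 of 563 held it (1.42%), and 4 of 139 higher ones (2.88%). Of all measured genes with a promoter there, 163 of 12762 held it (1.28%). Of the 18 genes named for being higher that have a promoter in the table, Slc6a13 held it, in 1 of its 3 promoters there. The promoters of the NF-κB target Cxcl10 and of the lower genes Fas, Csf2, Ifnb1 and Bcl2a1d had no match. A match is a description of the letters and shows no binding.

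The NF-κB target list had a lower median than all genes. Of 34 listed targets 22 were measured, 9 were lower by 2-fold (40.9%, against 4.69% over all genes) and none was higher (8 and 0 on the deposited scale), and the median log2 ratio was -0.79 (deposited -0.78) against 0.05 (0.04) over all genes. Nos2, the inducible nitric oxide synthase, read 2737 in L1210-Control and 581 in L1210-Fbxw11d, 4.71-fold lower (log2 ratio -2.24, deposited -2.26). Fas, the death receptor, read 780 and 172, 4.54-fold lower. The adhesion molecule Vcam1 read 58.8 and 24.4, 2.40-fold lower.

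Other listed targets were under 2-fold on the probe used. Nfkbia, which encodes IκBα, read 43025 and 26519 (log2 ratio -0.70, deposited -0.73). Birc3, a ubiquitin ligase of the TNF receptor complex, read 245 and 141 (log2 ratio -0.79), while its dimmer probe read 65.7 and 28.0, 2.35-fold lower (log2 ratio -1.23, deposited -1.01). The cyclooxygenase Ptgs2 read 5155 and 3006 (log2 ratio -0.78). Tnfaip3, the deubiquitinase A20, read 1409 and 1343 (log2 ratio -0.07), and the adaptor Traf1 read 33895 and 31625 (log2 ratio -0.10). Within the NF-κB and IκB family, none of 21 measured genes reached 2-fold, and the median log2 ratio was -0.24 (deposited -0.16). The lowest of these was the TNF receptor adaptor Traf2, with 18894 and 10934 (log2 ratio -0.79, deposited -0.84).

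Among the inflammatory cytokines the called genes were dim or measured on L1210-Control alone. Of 34 cytokines and colony factors 20 were measured, 4 were lower by 2-fold and none was higher, on both scales, or 20% against 4.69% lower over all genes. Il6 read 104 in L1210-Control and 14.4 in L1210-Fbxw11d, 7.20-fold lower (log2 ratio -2.85 ± 0.30, deposited -2.63). Csf2, the factor GM-CSF, read 74.7 and 18.5, 4.04-fold lower.

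The other 2 cytokines were measured on L1210-Control only. Csf3, the granulocyte factor G-CSF, read 76.3, with a fall of at least 7.31-fold in L1210-Fbxw11d. Ifnb1, interferon β, read 410 in the control and had a fall of at least 39.3-fold (log2 bound -5.30, deposited -5.13), and it did not clear background in L1210-Fbxw11a or L1210-Fbxw11c either. Of 26 interferon-stimulated genes measured, 2 were lower by 2-fold and none was higher (7.69%, against 5.77% of all genes), and the median log2 ratio was 0.05 (deposited 0.11). Both belong to the oligoadenylate synthetases: Oas1a read 82.3 and 17.1 (4.81-fold lower) and Oas2 read 59.5 and 24.0 (2.48-fold lower), while in L1210-Fbxw11a and L1210-Fbxw11c Oas1a read 64.0 and 53.4.

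Beyond these families, the largest falls measured on both arrays were of dim genes. Bcl2a1d, a survival protein of the Bcl2 family, read 507 ± 50.8 (scanner error) in L1210-Control and 30.03 in L1210-Fbxw11d, 16.9-fold lower (log2 ratio -4.08 ± 0.23, deposited -3.93). Near-identical copies of this gene exist in the mouse, so the probe may read more than 1 of them. The Bcl2 family list does not hold Bcl2a1d, and none of its 12 measured members reached 2-fold, with Bcl2 at 906 and 950, Mcl1 at 13287 and 13926 and Bcl2l1 at 16022 and 12950.

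Among the other leading genes, the serine protease inhibitor Serpina3m read 209 and 14.8 (14.1-fold lower), the gut peptide hormone Cck read 210 and 17.5 (11.97-fold lower) and the semaphorin Sema4f, an axon guidance protein, read 326 and 28.5 (11.4-fold lower). Lilrb4, an inhibitory receptor of leukocytes, read 125 and 10.8 (11.5-fold lower). Zc3h12a, the RNase Regnase-1 that degrades Il6 mRNA, read 165 and 20.9 (7.90-fold lower). L1210-Control was the highest of the 4 arrays for each, and the other lines ran from 15.3 for Serpina3m in L1210-Fbxw11c, where it did not clear background, to 40.5 for Cck in L1210-Fbxw11a. Sh3bgr showed how far 1 probe can be trusted: its brighter probe read 158 and 11.6 (13.6-fold lower), and its other probe read 26.4 and 27.3 (log2 ratio 0.05).

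Among genes measured on L1210-Control only, the importin Kpna7 had the largest bound. Its signal was 666 in L1210-Control, and the fall in L1210-Fbxw11d was at least 63.8-fold (log2 bound -6.00, deposited -5.84). Apart from Ifnb1, the others ranked with it read 157 (Il1f6) to 209 (Olfr102) in L1210-Control, with log2 bounds of -3.91 to -4.32. They were the olfactory receptors Olfr102, Olfr533 and Olfr822, the zinc finger gene Zkscan16, the serum protein Itih3, the F-box gene Fbxw14, the vomeronasal receptor Vmn2r72 and the interleukin Il1f6. The second probe of Fbxw14 read 3.66 and 13.1 and cleared background on L1210-Fbxw11d only, so near it that no fold is given. Mecom, a haematopoietic transcription factor, read 155 in L1210-Control, at least 14.8-fold lower, and 45.3 in L1210-Fbxw11a, while its second probe read 6.95 and 11.4 and cleared background on L1210-Fbxw11d only.

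Higher genes were fewer than lower ones on the 75th percentile and deposited scales. Prss23, a secreted serine protease, read 126 in L1210-Control and 819 in L1210-Fbxw11d, with 366 in L1210-Fbxw11a and 762 in L1210-Fbxw11c. It was 6.51-fold higher (log2 ratio 2.70 ± 0.21, deposited 2.70). Pax8, a transcription factor of thyroid and kidney, read 169 and 768, 4.55-fold higher (log2 ratio 2.19, deposited 2.17). Col1a2, a chain of type I collagen, read 888 ± 88.9 (scanner error) and 3702 ± 370, 4.17-fold higher (log2 ratio 2.06, deposited 1.98). In each of these 3 genes the control was the lowest of the 4 arrays. Col1a2 is also a stromal marker: 7 of 10 fibroblast and stromal markers were measured, Col1a2 was the 1 called, and their summed signal was 115806 in L1210-Control and 157948 in L1210-Fbxw11d, with no test of its part in the result.

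The control was also the lowest of the 4 arrays for Klhl30, Krt27, Cpn1 and Ddn. Klhl30, a kelch-domain protein, read 379 and 1391 (3.67-fold higher), the hair keratin Krt27 read 449 and 1622 (3.61-fold higher), the carboxypeptidase Cpn1 read 279 and 801 (2.87-fold higher) and dendrin (Ddn), a protein of neurons and podocytes, read 338 and 887 (2.62-fold higher). Tagln, the actin-binding protein transgelin, read 825 in L1210-Control and 2094 in L1210-Fbxw11d, but 754 in L1210-Fbxw11a and 730 in L1210-Fbxw11c. Only L1210-Fbxw11d stood apart there, 2.54-fold higher than L1210-Control (log2 ratio 1.34, deposited 1.30).

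Among the dimmer higher genes, the GABA transporter Slc6a13 read 31.99 and 245, 7.66-fold higher (log2 ratio 2.94 ± 0.26, deposited 3.04), and 40.7 and 87.1 in L1210-Fbxw11a and L1210-Fbxw11c. Cyp11a1, which starts steroid synthesis from cholesterol, read 95.2 and 551 (5.79-fold higher). Both probes of Me3, the mitochondrial malic enzyme, were higher, with 63.2 and 281 on the first (log2 ratio 2.15) and 60.5 and 196 on the second (log2 ratio 1.70). The lens protein Cryba1 was measured on L1210-Fbxw11d only, where it read 304, at least 16.8-fold higher (log2 bound 4.07, deposited 4.15). Only 3 other genes under that rule were higher on L1210-Fbxw11d alone, Bhmt2, Fign and Tas2r106, with bounds of 4.29 to 6.56-fold.

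**Figure D3:**
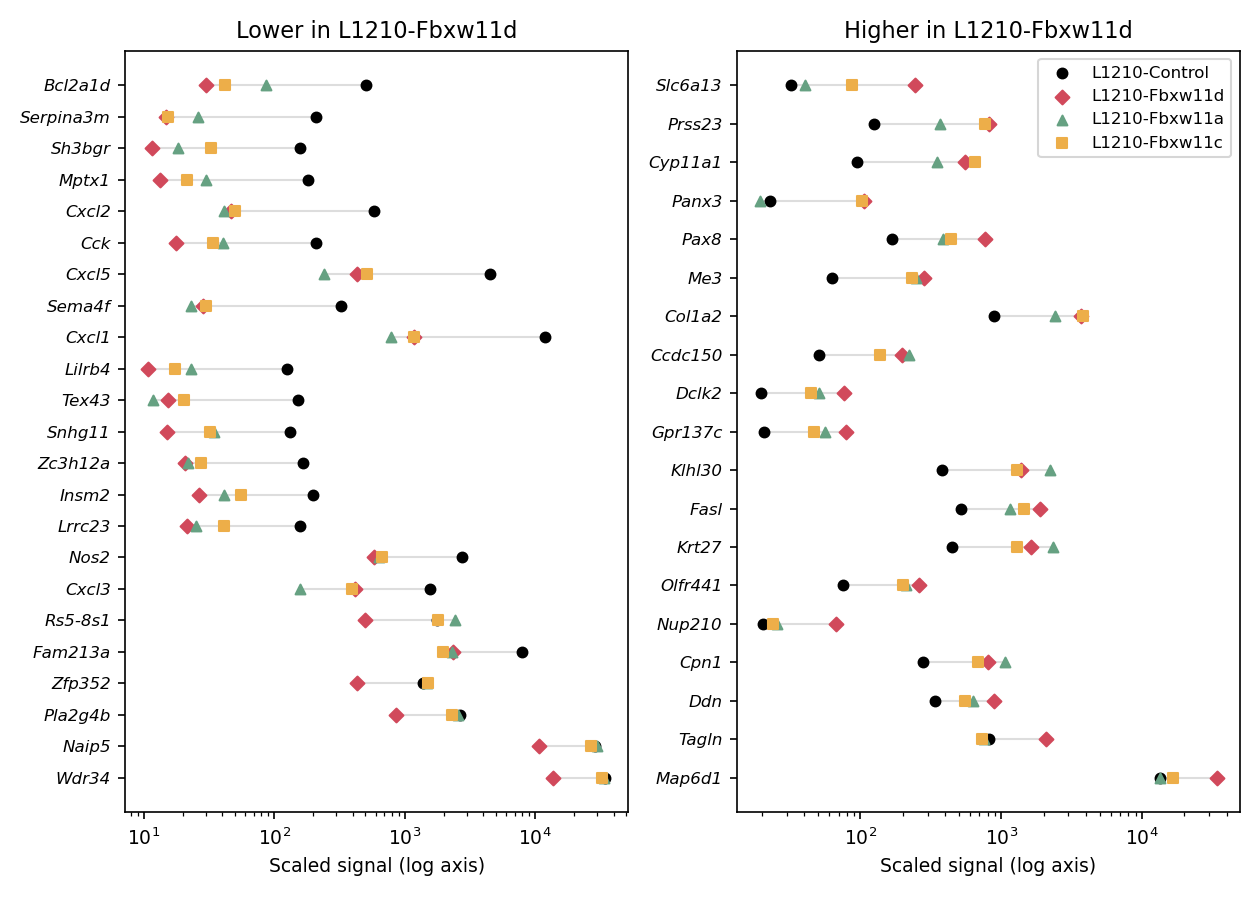
Scaled signals (log axis) of the genes ranked lowest (left) and highest (right) in L1210-Fbxw11d against L1210-Control, with 1 point per array for each of the 4 arrays. L1210-Control (black) lies apart from the 3 variant lines for most genes, while L1210-Fbxw11d (red) stands alone for Rs5-8s1, Zfp352, Pla2g4b, Naip5 and Wdr34 on the left and for Tagln, Nup210 and Map6d1 on the right.

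The death ligand and its receptor moved in opposite directions. Fasl, which triggers apoptosis through Fas, read 517 in L1210-Control and 1884 in L1210-Fbxw11d, with 1145 and 1456 in L1210-Fbxw11a and L1210-Fbxw11c. It was 3.65-fold higher (log2 ratio 1.87, deposited 1.82), against the 4.54-fold lower Fas. Tnfsf18, the ligand of the receptor GITR, read 91.3 and 184, 2.01-fold higher (deposited log2 ratio 1.14). No other of the 16 measured TNF superfamily genes and death receptors reached 2-fold, so 18.8% were called against 5.77% of all genes.

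Targets of β-catenin/TCF stood on both sides. Of 26 listed 19 were measured, 1 was higher and 2 were lower by 2-fold on both scales (together 15.8%, against 5.77% called over all genes). The median log2 ratio was 0.20 (deposited 0.16), but 0.07 with the mean of the probes of a gene and -0.02 with normexp background correction. Wisp1, a matricellular target, read 455 and 925 (2.03-fold higher, and just past 2-fold on the deposited scale), and its second probe read 297 and 561 (log2 ratio 0.92). Lgr5, a stem cell receptor and Wnt target, read 207 and 377 (log2 ratio 0.87) and Bmp4 read 17951 and 29694 (log2 ratio 0.73), both under the threshold. The feedback inhibitors Nkd1 (25.6 in L1210-Control) and Dkk1 (67.9 in L1210-Control) were measured on L1210-Control and not on L1210-Fbxw11d, at least 2.45-fold and 6.51-fold lower. In L1210-Fbxw11a they read 29.4 and 141.

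The study chose 20 genes on these samples for RT-PCR, so their direction is no independent evidence. Of these, 10 were higher, Gabbr1 among them, and 1 lower by 2-fold on the 75th percentile scale and 12 and 1 on the deposited scale. Together 55% were called, against 5.77% over all genes (65% against 5.05% on the deposited scale). Both arrays measured 13 of the 20, and the median log2 ratio fell from 1.01 to 0.41 with normexp background correction. Fasl, Wisp1 and Pax8 were the brightest of the higher ones in L1210-Fbxw11d. The 1 lower gene, the plexin Plxnb1, read 40.4 in the control, with a fall of at least 3.87-fold. Gabbr1, a GABA receptor subunit, depended on the probe. Its probe at chr17:37206959-37207018 (mm9) read 31.9 and 76.9, 2.41-fold higher, while the probe at chr17:37210986-37211045 read 180 in L1210-Control, with a fall of at least 17.3-fold in L1210-Fbxw11d. The first has the higher mean log2 signal over the 2 arrays and was the one counted. With the probe of the highest mean linear signal, which is the second for Gabbr1, the counts were 9 higher and 2 lower.

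Gene groups of the SCF ligase and the cell cycle stayed under 2-fold. The SCF core list had 12 measured members, none called, and a median log2 ratio of 0.16 (deposited 0.14). Btrc, which encodes the paralogue β-TrCP1, read 281 and 307, the scaffold Cul1 read 1112 and 1213, and the APC/C inhibitor Fbxo5 had the highest ratio, with 8975 and 14052 (log2 ratio 0.65, deposited 0.56). None of 26 mRNAs of known β-TrCP substrates was called, and their median was 0.02 (deposited -0.01). The ligase acts on proteins, which the arrays do not measure.

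Mitotic genes lay together above 0 without reaching the threshold. Of 30 measured mitosis and G2/M genes, 29 had a log2 ratio above 0, with a median of 0.33 (deposited 0.25), against medians of 0.00 in L1210-Fbxw11a and 0.23 in L1210-Fbxw11c. Cyclin B1 (Ccnb1) read 19275 and 29230 (log2 ratio 0.60), the mitotic transcription factor Foxm1 read 2959 and 4773 (log2 ratio 0.69) and the kinase Plk1 read 32166 and 43424 (log2 ratio 0.43). Of 31 DNA replication genes 22 were below 0, with a median of -0.06 (deposited -0.12). The sign of the replication median depends on the scaling, and that of the mitotic median does not under the scalings tried. Centred on the median the mitotic and replication medians were 0.55 and 0.16 beside 0.26 over all genes, and centred on the E1A spike-ins they were 0.91 and 0.52 beside 0.62. Among 21 G1 cyclins, CDKs and inhibitors none was called, and the median was 0.17 (deposited 0.12).

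Of 24 measured cholesterol synthesis genes, 21 had a log2 ratio above 0, with a median of 0.33 (deposited 0.27), and 1 passed 2-fold in each direction (8.33%, against 5.77% called over all genes). The sterol-sensing transcription factor Srebf2 read 1639 and 2459 (log2 ratio 0.58) and Hmgcs1 read 17371 and 25385 (log2 ratio 0.55). The sterol carrier Stard4 read 50.4 in L1210-Control, at least 4.83-fold lower. The medians in L1210-Fbxw11a and L1210-Fbxw11c, against the same control array, were 0.13 and 0.23.

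**Figure D4:**
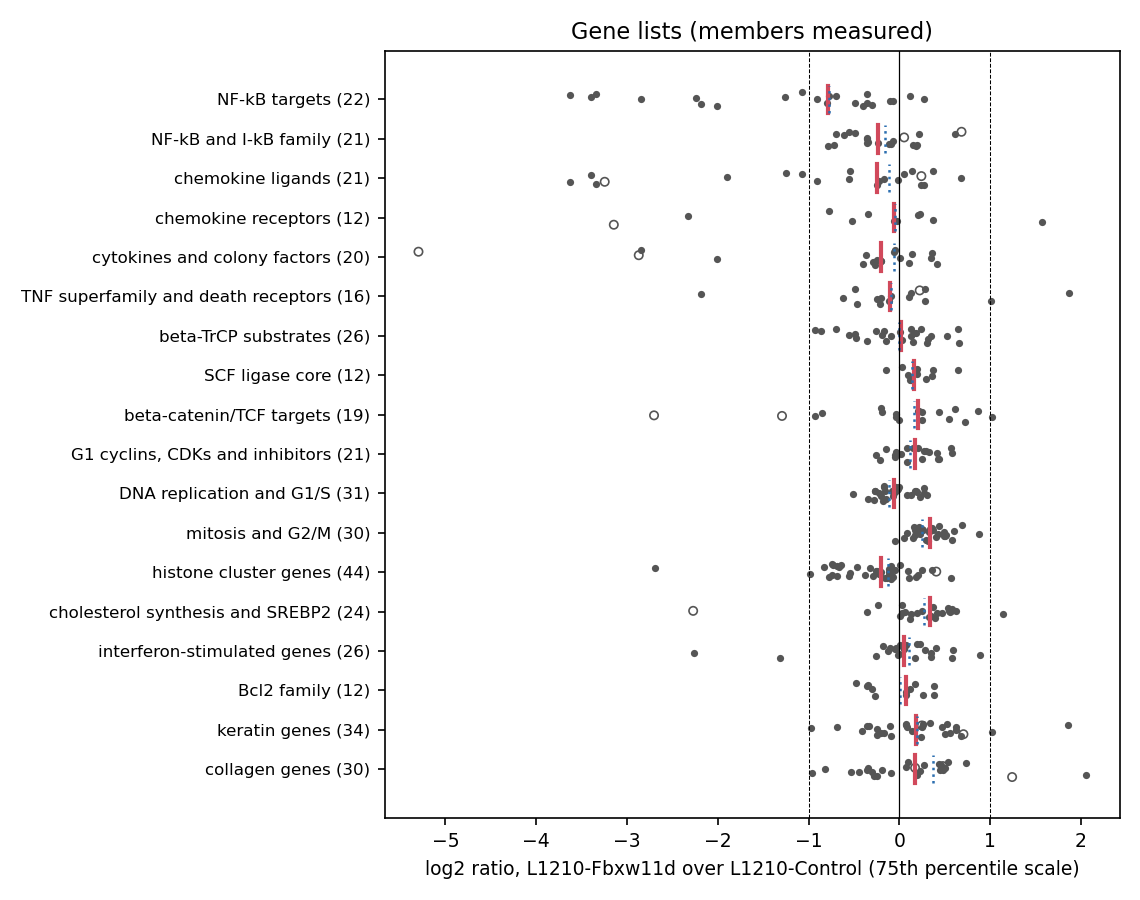
Log2 ratio of L1210-Fbxw11d to L1210-Control on the 75th percentile scale for the measured members of 18 gene lists, 1 point a gene, with filled points measured on both arrays and open points bounds. Red bars are medians on this scale, blue dotted bars those on the deposited scale and dashed lines mark 2-fold. The NF-κB target median lies at -0.79, the mitotic and cholesterol medians at 0.33 each.

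Housekeeping lists had few calls. Of 83 measured cytosolic ribosomal protein genes 1 was lower by 2-fold on the 75th percentile scale and none on the deposited scale, and the median moved with the scale, from -0.15 to 0.01. Of 77 oxidative phosphorylation genes 1 was lower (1.30%), the muscle isoform Cox6a2, with 365 in L1210-Control and 151 in L1210-Fbxw11d (2.42-fold lower). None of 37 proteasome genes, 28 glycolysis and hypoxia genes, 21 heat shock and chaperone genes, 20 p53 targets or 18 genes of Toll-like receptor signalling was called on the 75th percentile scale.

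Slc7a11, the cystine transporter that both ATF4 and NRF2 drive, read 167 and 36.0 (4.66-fold lower) and was the 1 call among 25 ATF4 genes (4%) and among 21 NRF2 genes (4.76%), against 5.77% over all genes. Zfp36, which marks cytokine mRNAs for decay, read 78.2 and 26.5 (2.95-fold lower), and Nlrc5, the activator of MHC class I genes, read 67.0 and 27.8 (2.41-fold lower). Of 27 haematopoietic transcription factors 3 were lower by 2-fold and none higher (2 and 0 on the deposited scale), or 11.1% against 4.69% lower over all genes (7.41% against 3.34% on the deposited scale). Beside Mecom these were Zbtb16, known as PLZF, with 56.4 and 13.2 (4.27-fold lower), and Bcl11a, with 91.8 and 43.6 (2.10-fold lower, deposited log2 ratio -0.87). A second Bcl11a probe read 26.6 and 19.6 (log2 ratio -0.44), and another was measured on L1210-Fbxw11d only, with a log2 bound of 0.44.

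Of 34 measured keratins 2 were higher and none lower on both scales, Krt27 and the basal keratin Krt14, which read 188 and 381 (2.03-fold higher). They were 5.88% of the keratins, against 1.08% higher and 5.77% called in either direction over all genes. Of 30 collagens 2 were higher and none lower on both scales, Col1a2 and Col6a3, the second measured on L1210-Fbxw11d only, where it read 42.8, at least 2.36-fold higher, and they made up 6.67%. The median log2 ratios were 0.19 for keratins and 0.17 for collagens (deposited 0.20 and 0.37), and with normexp both turned below 0, to -0.04 and -0.19. Col6a3 fell under 2-fold with normexp, to a log2 ratio of 0.13.

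Of 10399 measured probes for long intergenic noncoding RNAs, 116 were higher and 959 lower on the 75th percentile scale, together 10.3% against 6.95% of all probes, and 241 and 639 on the deposited scale. Their median log2 ratio was -0.12 on the first scale and 0.01 on the second.

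Histone genes are given by type, and no difference between types was tested. Replication-dependent histone mRNAs end in a stem-loop in place of a poly(A) tail and are made in S phase. Of 44 measured histone cluster genes 1 was lower by 2-fold and none higher (2 and 0 on the deposited scale). The share lower was 2.27% against 4.69% over all genes (4.55% against 3.34% on the deposited scale). The median log2 ratio was -0.21 (deposited -0.13). All 9 measured H4 genes had a log2 ratio below 0, with a median of -0.69 (deposited -0.74) and a range of -0.78 to -0.07. Of 8 measured H3 genes 7 had a ratio or a bound, with a median of -0.10 (deposited -0.10), and of 10 H2B genes 9 had one, with a median of -0.12 (deposited -0.11). Of the 12 H2A genes 11 were below 0, with a median of -0.22 on the 75th percentile scale and 0.01 on the deposited scale. The 5 H1 genes, which encode linker histones, had a median of -0.32 (deposited -0.40).

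The H4 values did not rest on dim probes. Among the 7 H4 genes with a signal of 1000 or more in L1210-Control the median was -0.69 (deposited -0.74), while the 5 H3 genes that bright had a median of 0.19 (deposited 0.11). The 9 H2A genes that bright were all below 0 on the 75th percentile scale, with a median of -0.20, but had a deposited median of 0.06. Hist1h4k read 91139 in L1210-Control and 54392 in L1210-Fbxw11d, with 93693 and 95684 in L1210-Fbxw11a and L1210-Fbxw11c. Its second probe read 11487 and 6855, the same log2 ratio of -0.74. Hist2h4 read 79153 and 47421 (log2 ratio -0.74), while its dim second probe read 47.4 and 49.8 (log2 ratio 0.07, deposited 0.28). Over the 9 H4 genes the medians were 0.14 in L1210-Fbxw11a and 0.09 in L1210-Fbxw11c. The linker histone Hist1h1e read 11733 and 6594 (log2 ratio -0.83, deposited -0.90), and the single call was the testis linker Hist1h1t, with 179 and 27.8 (6.44-fold lower). H4 genes are near-identical in their coding sequence, so their probes may share transcripts and are not separate evidence.

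Some bright probes were 2-fold or more from L1210-Control in L1210-Fbxw11d and under 2-fold in both other lines. The ribosomal gene Rs5-8s1 (5.8S ribosomal RNA) read 1766 in L1210-Control and 498 in L1210-Fbxw11d, 3.55-fold lower (log2 ratio -1.83, deposited -1.85), and 2415 and 1790 in L1210-Fbxw11a and L1210-Fbxw11c. Naip5, an inflammasome sensor, read 28521 and 10709 (2.66-fold lower), with 30021 and 26785 in L1210-Fbxw11a and L1210-Fbxw11c. Wdr34, a dynein intermediate chain, read 34435 and 13732 (2.51-fold lower), with 33800 and 32440. For Naip5 and Wdr34 the log2 ratios of the other lines to the control lay between -0.09 and 0.07, within the scanner error, while Rs5-8s1 had a log2 ratio of 0.45 in L1210-Fbxw11a.

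Naip5, Wdr34 and others among these probes share a short sequence, which was found by ranking after their values were seen, as was the minimum number of probes. Every 10-base sequence held by at least 12 probes measured on both arrays was ranked by the median log2 ratio of its probes. Of 5038 such sequences, AGATGGCTCA had the lowest median, -1.37 over 22 probes (deposited -1.37), shared with the overlapping GAGATGGCTC (24 probes, deposited -1.31). The reverse complement of AGATGGCTCA, TGAGCCATCT, had the highest, 0.74 over 12 probes (deposited 0.75). The first sequence is part of the opening of the B2 repeat, a short interspersed element that RNA polymerase III transcribes and that lies in many mouse introns and 3′ ends. The probes below are shown because they carry this pattern, as 30-base windows of the 60-mers with the shared 10 bases in capitals, the first 4 with the B2 sense strand and the last 4 with its complement.
Prorsd1: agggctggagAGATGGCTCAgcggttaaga
Apopt1: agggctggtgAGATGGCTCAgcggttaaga
Wdr34: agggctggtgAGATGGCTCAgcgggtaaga
Naip5: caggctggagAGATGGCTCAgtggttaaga
Map6d1: cTGAGCCATCTctccagcccaaatttttaa
Dennd5b: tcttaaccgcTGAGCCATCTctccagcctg
6230415J03Rik: cttacctacTGAGCCATCTcaccaacccaa
Thoc7: tcttaagtgcTGAGCCATCTctcaaaaccc
The 4 sense windows are nearly the same beyond the shared 10 bases. How far these probes read the repeat and how far the gene they are named for was not tested.

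Sense and complement probes parted in L1210-Fbxw11d. Of the 22 sense probes 21 had a log2 ratio below 0, 15 were lower by 2-fold and none higher (14 and 0 on the deposited scale), over a range of -2.38 to 0.15. Of the 12 complement probes 10 had a ratio above 0, 3 were higher by 2-fold and none lower (2 and 0 on the deposited scale). Among all 33948 probes measured on both arrays, 1572 were lower and 281 higher by 2-fold, together 5.46% (deposited 1020 and 496, together 4.47%). The medians of the same sense probes were 0.01 in L1210-Fbxw11a and -0.13 in L1210-Fbxw11c, and those of the complement probes -0.03 and 0.14. The direction of these medians was the criterion of the ranking, so it is a description and no test.

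The size of the difference varied among bright probes. On the sense side the brightest, named for Bpifc, read 204011 in L1210-Control and 154619 in L1210-Fbxw11d (1.32-fold lower). Prorsd1 read 46758 and 21208 (2.205-fold lower), Medag read 19607 and 8434 (2.32-fold lower) and Apopt1 read 15884 and 5747 (2.76-fold lower). On the complement side Map6d1 read 13445 and 33983 (2.53-fold higher), 6230415J03Rik read 19766 and 53278 (2.70-fold higher) and Dennd5b read 17058 and 34614 (2.03-fold higher). In L1210-Fbxw11a these 7 probes read 204402, 46983, 19512, 16219, 13422, 19914 and 16426, in the same order, and in L1210-Fbxw11c 203815, 44098, 17608, 14122, 16645, 22802 and 19029. Bpifc was level with the control there, and each of the others lay on the same side of the control in L1210-Fbxw11c as in L1210-Fbxw11d, with log2 ratios of -0.17 to -0.08 on the sense side and 0.16 to 0.31 on the complement side.

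Other probes of the same genes were read as well. For the 9 sense genes with another measured probe that lacks the sequence, those 10 probes had a median log2 ratio of -0.11 (deposited -0.04), and 8 of them lay between -0.15 and 0.12. The others were of Stxbp2, with 92.9 and 39.5 (2.35-fold lower), and of Orai2, with 242 and 124 (log2 ratio -0.96), further from the control than the Orai2 probe with the sequence (log2 ratio -0.67). For the 3 complement genes, 6 such probes had a median of -0.32 (deposited -0.16). The second probe of Apopt1 read 209122 and 194345 (log2 ratio -0.11) and that of Prorsd1 read 1167 and 1265 (log2 ratio 0.12).

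**Figure D5:**
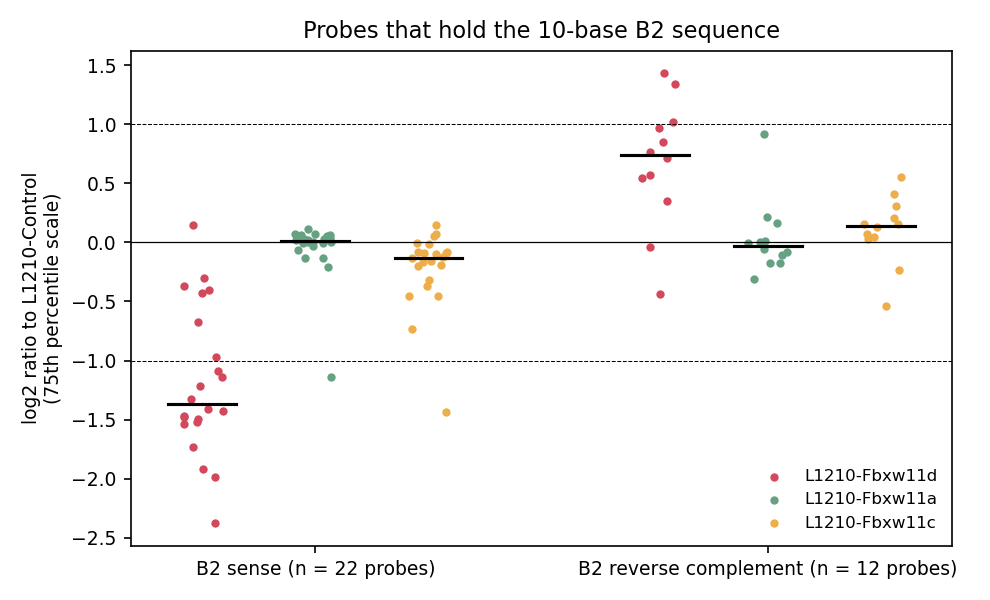
Log2 ratio to L1210-Control on the 75th percentile scale in each of the 3 variant lines for the 22 probes that hold the 10-base B2 sequence in sense (left) and the 12 that hold its reverse complement (right), with 1 point a probe, black bars for medians and dashed lines at 2-fold. In L1210-Fbxw11d the sense median is -1.37 and the complement median 0.74, while in the other lines both lie between -0.13 and 0.14.

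Base composition moved with the ratio as well, and its part in the results was not tested. Among probes measured on both arrays with a brighter signal of at least 100 before scaling, the median log2 ratio was 0.09 for the 483 probes under 35% GC and -0.16 for the 524 probes of 60% or more (deposited 0.10 and -0.16). The same bins gave 0.03 and -0.05 in L1210-Fbxw11a and 0.08 and -0.07 in L1210-Fbxw11c. Over the 20 chromosomes, the medians ran from 0.01 to 0.09.

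Second probes often gave smaller differences than the probe that made the call. Of the 23 higher genes with another probe measured on both arrays, that probe was higher by 2-fold for 7, higher by less for 10 and not higher for 6. On the deposited scale it was higher by 2-fold for 8 and not higher for 5. Of the 47 lower genes, it was lower by 2-fold for 7, lower by less for 27 and not lower for 13. On the deposited scale it was lower by 2-fold for 4 and not lower for 14. Over all 4556 genes with such a probe, it was higher by 2-fold for 0.549% and lower by 2-fold for 2.70%. Its ratio was above 0 for 53.9% and below 0 for 46.1%.

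Marker genes were checked against the lymphocytic label. Of 17 B lineage markers 10 were measured, and the adaptor Blnk was the brightest, with 18268 in L1210-Control and 21078 in L1210-Fbxw11d. Cd79a read 87.4 and 92.0, and Ms4a1 was not well above background. Cd22 came next to Blnk, with 320 and 229. Of 15 T lineage markers 11 were measured, with Cd4 at 3020 and 2841 and Cd3e at 1293 and 1446. The costimulatory receptor Cd28 read 192 and 74.5, 2.58-fold lower, and was the 1 T lineage gene called. Of 14 myeloid markers measured, the receptor Csf1r was the only one lower by 2-fold (1104 and 509), and another of its probes read 552 and 464. Its log2 ratio was -0.90 centred on the median, -0.54 centred on the E1A spike-ins and -0.68 with the mean of its probes. Under the other alternatives tried Csf1r stayed past 2-fold. Emr1, the macrophage marker F4/80, read 48.3 and 91.2 and was higher by 2-fold on the deposited scale (log2 ratio 0.92, deposited 1.099), and its other probe, measured on L1210-Fbxw11d only, read 102, at least 5.62-fold higher. The B cell markers Cd79a and Ms4a1 were thus dim or not measured in both lines. Of the other marker lists, NK cells had 1 call among 5 measured (Gzma, 57.4 and 135), erythroid cells 1 among 3 (Hba-a1, 78.2 and 170) and epithelial cells none among 4, against 5.77% called over all genes.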

How the data were processed

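RNA of 4 stable L1210 lines was labelled with Cy3 and hybridised to 1 Agilent SurePrint G3 mouse array each. The files the authors deposited give a background-corrected signal intensity for each spot (Agilent Feature Extraction 10.7.1.1 per the file headers, 9.1 per the labels), and a table of log2 normalized values, whose method is not given in the sources used here. Its sorted values differed by at most 0.198 between arrays. Control and outlier-flagged spots (102 to 167 an array) were left out, spots of a probe were averaged, and log2 intensity minus the array's 75th percentile was compared. A probe was measured where at least 0.5 of its spots were well above background, and no gene spot was saturated. Where only 1 array measured a probe, the other was set to the higher of its own signal and the lowest signal of probes with all spots above background (18.1 for L1210-Control, 16.0 for L1210-Fbxw11d, before scaling). A difference of 2-fold was called, as in the study's text. Genes were read by the measured probe with the highest mean log2 signal over the 2 arrays.

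Genes named were the 15 highest and 15 lowest by the scale with the smaller change, the 10 of each with a brighter signal of 1000 or more before scaling, the 10 largest bounds with one of 100 or more before scaling (4 higher), list members, and Fbxw11; 10-base sequences and their genes were picked after values were seen. Some list members are not reported here. Members and lists were chosen with earlier results of these data known. The number of arrays limits the precision. The step that makes calls and bounds was also tested on simulated data. Python 3.11.15, numpy 2.4.6, pandas 2.3.3, R 4.3.3 and limma 3.58.1 (normexp, offset 50, an alternative) were used.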

Additional observations from a re-analysis of the deposited data

Results flagged for a closer look

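For 2 genes L1210-Fbxw11d and another line were 2-fold or more from L1210-Control in opposite directions, with 1 array a line, so the difference was not tested. Ccr10 had a log2 ratio of -2.32 in L1210-Fbxw11d and 1.497 in L1210-Fbxw11a, from signals of 14.8, 209 and 74.1 in L1210-Control. Dkk1 had a log2 bound of -2.70 in L1210-Fbxw11d and a ratio of 1.05 in L1210-Fbxw11a.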

How the results depend on the processing

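No paired analysis was possible because each line has 1 array. The probes called at 2-fold on the 75th percentile scale (396 higher and 2320 lower, 2716 in all) became 691 higher on the deposited scale, 695 higher with quantile normalization, and 868 higher and 1519 lower centred on the median. Centred on the E1A spike-ins they were 3851 higher and 861 lower, 4712 in all, so the excess turned direction: the share of higher calls was 81.7% there, 14.6% on the 75th percentile scale, 30.1% on the deposited scale, 36.4% centred on the median and 4.16% with normexp. Normexp background correction gave 45 higher and 1037 lower, 1082 in all, and no filter on dim probes gave 1814 and 5325, 7139 in all. A brighter signal of at least 100 left 227 and 717, 944 in all. A threshold of 1.5-fold gave 1905 and 4976, 6881 in all, and 3-fold gave 62 and 857, 919 in all. Flagged spots kept, measurement required on both arrays, 2-fold on both scales and, chosen after seeing the data, leaving out the probes with the B2 sequence kept each count within 1.5 times.

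Of 99 genes followed, 98 called, 693 values under 7 alternatives kept direction and side of 2-fold in 629 and fell under 2-fold in 61, of which 29 came with normexp and 15 with spike-in centring. Fbxw11 changed sign on the deposited scale (-0.0632) and with quantile normalization (-0.0614), and Gabbr1 with the mean of its probes (-1.42). Fbxw11 was 0.25 centred on the median and 0.61 centred on the spike-ins, beside medians over all genes of 0.26 and 0.62. Of 39 list medians, centring on the median or on the spike-ins moved each by more than 0.127, the spread between single-spot ratios, and turned the sign of 10 and 13, and normexp turned that of 7. Over all 7 alternatives 106 list medians moved by more than this and 167 did not. With the probe of the highest mean linear signal, chosen after seeing the data, 26 genes changed probe, 199 were higher and 880 lower. The causes were not tested. Dim signals limit the precision, with a spot spread of 0.92 under a signal of 100 against 0.11 from 1000 upwards.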
